A study of Mus musculus with 15 samples.

Results

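The comparison set muscle stem cells after 30 minutes of tissue dissociation (T30) against the same kind of cells after 15 minutes (T15), in bulk RNA-seq of mouse skeletal muscle. All T30 and T15 count columns of the table were taken, which gave 3 T30 libraries (30A, 30B and 30C) and 4 T15 libraries (15A to 15D) of 22 bulk libraries, and all 8059 listed genes were tested. Both groups came from dissociated muscle, digested with collagenase and dispase, and both were fixed with PFA. The labels give neither a strain, age or sex nor a unit of time, and the numbers 30 and 15 were taken as minutes. The other bulk groups were intact muscle (T0) and muscle dissociated for 60, 90 and 120 minutes (T60, T90 and T120), all fixed. The labels list 1 sample per time point and do not say whether the 3 or 4 libraries behind it came from separate animals. The p-values therefore measure the spread between libraries of the same time point, estimated over all 22 bulk libraries. That spread may be technical. In bulk RNA a lower level per cell and fewer cells that carry the RNA cannot be told apart.

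Muscle stem cells, also called satellite cells, lie between the muscle fibre and its basement membrane and stay out of the cell cycle in resting muscle. When a cell receives a strong signal or a stress, immediate early genes such as the AP-1 and EGR factors are transcribed first, without new protein synthesis, and a later set of genes that includes inhibitors of the same signals follows. Enzymatic digestion of tissue is known as such a stress, and transcription can go on while it lasts.

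Per library, the listed genes held 3876418, 4130336 and 9873856 counts in 30A, 30B and 30C, against 6967603, 10482407, 8827293 and 4852091 counts in 15A, 15B, 15C and 15D. The libraries differed in counts that fall in long genes which are silent in these cells. Over 5 such genes (Muc16, Mroh2a, Pclo, Dnah8 and Csmd1) the density was 7.29, 5.35 and 1.54 CPM per kb of exon in 30A, 30B and 30C, against 0.914, 0.592, 0.972 and 3.81 CPM per kb in 15A, 15B, 15C and 15D, where CPM is the count scaled to the same total in every library. Libraries 30A, 30B and 15D were high, 30C lay closer to the remaining T15 libraries, and the groups overlapped. Of 26 genes named for this measure 7 were listed, and of these Ryr3 and Hmcn2 were not silent (14.2 and 380.0 CPM per kb at T60). The lowest mean of scaled counts among listed genes was 98.4, so named genes with few counts in all libraries are absent. The density and its test thus rest on named genes that held counts. Over all 7 the mean log2 density was 3.13 at T30 and 2.02 at T15, a difference of 1.113 (exact permutation test, two-sided, p = 0.143, where 3 against 4 libraries cannot go below 0.0571). Over the 5 silent genes, chosen after the values were seen and so not tested, the difference was 1.72. Along the first principal component of log CPM, with 58.3% of the variance of the 7 libraries, 30A, 30B and 15D lay on one side (37.6, 22.2 and 13.6) and 30C, 15A, 15B and 15C on the other (-4.27, -24.7, -29.6 and -14.8). Many results are therefore also given without 15D or for 30C alone against 15A, 15B and 15C, called the 30C comparison below. The part of this background in results that lean on 30A, 30B or 15D was not tested beyond these values.

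**Figure D1:**
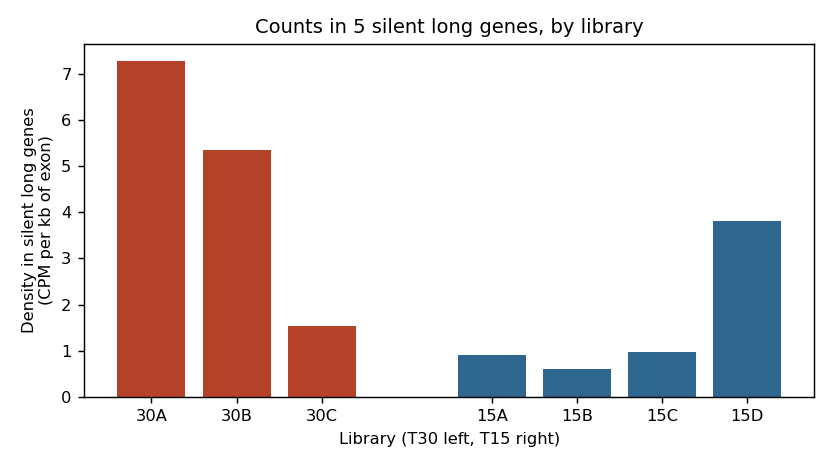
Density of counts in 5 silent long genes, in CPM per kb of exon, for each T30 library (left) and T15 library (right). Bars start at 0, and 30A, 30B and 15D stand above the other 4 libraries, with 7.29, 5.35 and 3.81 CPM per kb.

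The cells carried the markers of muscle stem cells in both groups. Pax7, the transcription factor that defines satellite cells, had 1703, 1473 and 1817 CPM in 30A, 30B and 30C, against 1309.6, 1179, 1647 and 1528 CPM in 15A, 15B, 15C and 15D. All 11 listed muscle stem cell markers were present in every library and only Chodl, a lectin-like membrane protein gene used as a quiescence marker, was called. Of markers of other cells, 8 myofibre, 6 endothelial, 4 fibro-adipogenic, 6 smooth muscle or pericyte, 1 immune (Cd68) and 1 glial (Mbp) gene were listed, none of them called, and no tenocyte or erythroid marker was listed. Their summed levels moved with the high-background libraries in different directions. Endothelial markers summed to 314, 259.7 and 162 CPM in 30A, 30B and 30C, against 173, 130.01, 204 and 253 CPM in 15A, 15B, 15C and 15D, and myofibre markers to 1219.9, 1036 and 540.0 CPM in 30A, 30B and 30C, against 592, 798, 537 and 978 CPM in 15A, 15B, 15C and 15D. Both sums were highest in 30A, 30B and 15D. Fibro-adipogenic markers summed to 1044, 1221 and 1535 CPM in 30A, 30B and 30C, against 1602, 1766, 1307 and 1261 CPM in 15A, 15B, 15C and 15D, and were lowest in those 3 libraries. The median log2 fold change of the 6 endothelial markers was 0.79 with all libraries and 0.05 in the 30C comparison. Smooth muscle and pericyte markers had medians of 0.73 and 0.08 in the same order.

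Between T15 and T30, 394 of 8059 genes (4.89%) were called at an adjusted p under 0.05 by edgeR's quasi-likelihood test. Of these 255 (3.16% of the genes tested) were higher and 139 (1.72%) lower at T30. The rises were the larger changes: 119 of them reached 2-fold, against 17 of the falls, and the median log2 fold change was 0.96 among the rises and -0.62 among the falls. All genes tested had a median of -0.02. With the authors' size factors in place of TMM the split was 297 higher and 66 lower. When only the 7 libraries of T15 and T30 were fitted, 82 genes were higher and 16 lower. At the edge of the threshold lay Upf3b, a nonsense-mediated decay factor gene, just inside with a log2 fold change of -0.38 ± 0.11 (edgeR adjusted p = 0.0499), and Mybpc1, a sarcomeric myosin-binding protein gene, just outside with -0.82 ± 0.24 (edgeR adjusted p = 0.0502).

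In CPM, all T30 libraries lay above all T15 libraries for 211 of the 255 rises, and below them for 113 of the 139 falls, where the same held for 6.90% and 6.60% of all genes. Without 15D, 254 of the 255 rises and 137 of the 139 falls were called again, among 767 (9.52%) and 373 (4.63%) calls in all. In the 30C comparison every one of the 394 genes kept its direction, and 30C lay above 15A, 15B and 15C for 254 rises and below them for 138 falls (25.0% and 27.4% of all genes), with medians of 0.89 for the rises and -0.55 for the falls. These comparisons share libraries with the full one, so they do not repeat it independently. By its own test the 30C comparison called 55 genes higher (0.682%) and 4 lower (0.0496%), among them 55 of the 255 rises and 3 of the 139 falls, with only 1 T30 library whose spread was assumed to be like that of the other libraries. These 58 genes, called with all libraries, without 15D and in the 30C comparison (0.682% of genes up, 0.0372% down), are called the core genes here. The library left out mattered for the counts: they were 92 higher and 15 lower without 30A, 168 and 20 without 30B, 673 and 423 without 30C, 186 and 34 without 15A, 131 and 35 without 15B, and 202 and 74 without 15C. Library 15D was the highest T15 library in 148 of the 255 rises (58.0%) and the lowest in 109 of the 139 falls (78.4%), against 30.3% and 31.8% of all genes.

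When the background density was subtracted from every count, 133 rises and 38 falls of the full comparison were called again, among 435 higher (5.40%) and 124 lower (1.54%) of 8052 genes, and so were 43 of the 55 rises and all 3 falls among the core genes. Core rises named below that were not called after subtraction are Stard4, Sc5d, Plat, Zc3h12a, Pde12, Eif1a and Cebpg. With the density as a covariate, 93 rises and 8 falls were called again, among 94 (1.17%) and 9 (0.112%). The subtraction lowered the median of all genes by 0.18 on the log2 scale, and 45 of the 255 rises and 9 of the 139 falls changed sign under it.

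**Figure D2:**
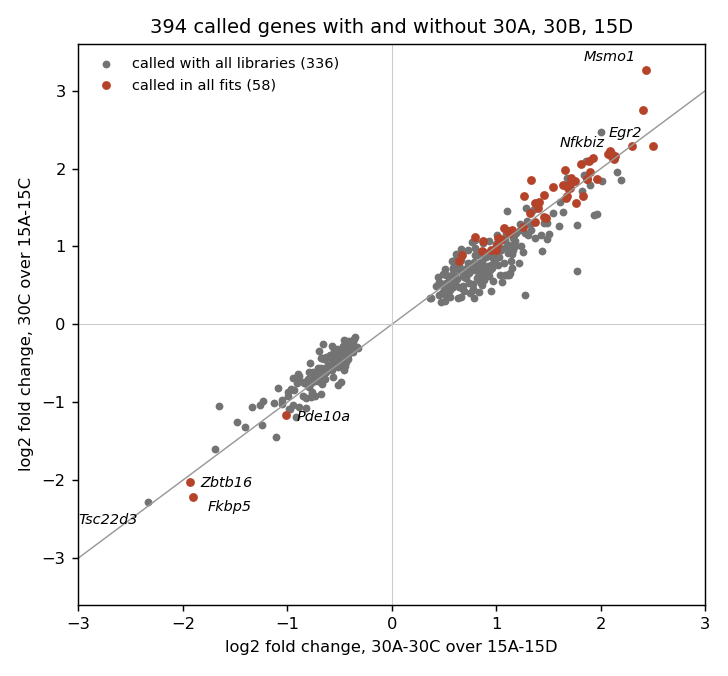
Log2 fold changes of the 394 called genes, with all 7 libraries on the x axis and in 30C against 15A to 15C on the y axis. Red points are the 58 core genes and grey points the other 336, the line marks equal values, and the axes share libraries. All points keep their sign.

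The largest rise was that of Egr2, a zinc finger transcription factor of the immediate early class (chr10:67535475-67542188, + strand, GRCm38). Egr2 had 147, 68.0 and 74.6 CPM in 30A, 30B and 30C, against 17.5, 12.7, 16.3 and 22.0 CPM in 15A, 15B, 15C and 15D. All T30 libraries lay above all T15 libraries, and 30A was the highest. The log2 fold change was 2.50 ± 0.30 with all libraries (standard error; edgeR adjusted p = 4.77e-05) and 2.29 in the 30C comparison (edgeR adjusted p = 0.00478).

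The second largest rise was that of Msmo1, a gene of sterol synthesis, and Hmgcs1 of the same pathway was also among the 16 named rises. Msmo1 (chr8:64718139-64733792, - strand), a demethylation enzyme of cholesterol synthesis, had 60.4, 56.8 and 65.4 CPM in 30A, 30B and 30C, against 6.74, 3.61, 10.5 and 26.3 CPM in 15A, 15B, 15C and 15D. The T30 libraries were close together, and 15D was the highest of a widely spread T15 group. Hmgcs1 (chr13:119690379-119708260, + strand), which makes HMG-CoA at the start of the pathway, had 76.2, 71.4 and 69.6 CPM in 30A, 30B and 30C, against 15.6, 13.99, 16.9 and 23.3 CPM in 15A, 15B, 15C and 15D, again with 15D the highest T15 library. In both genes the groups did not overlap. Log2 fold changes were 2.43 ± 0.43 for Msmo1 and 2.07 ± 0.26 for Hmgcs1, and 3.27 and 2.19 in the 30C comparison.

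Among the other named rises were transcription and signalling regulators. Nfkbiz, an atypical inhibitor of the NF-kB family that also acts as a coactivator, had 273, 184 and 219 CPM in 30A, 30B and 30C, against 50.5, 34.7, 63.4 and 56.8 CPM in 15A, 15B, 15C and 15D. Arid5a, which in mouse stabilises the mRNA of inflammatory genes such as Il6, had 308, 178 and 215 CPM in 30A, 30B and 30C, against 56.2, 43.8, 49.5 and 65.5 CPM in 15A, 15B, 15C and 15D. Both showed more than 2-fold gaps between the lowest T30 and the highest T15 library, and 30A was the highest in each. Atf3, a stress-induced factor of the AP-1 group, had 228, 136 and 151 CPM in 30A, 30B and 30C, against 54.3, 21.6, 42.7 and 36.2 CPM in 15A, 15B, 15C and 15D. Csrnp1, a nuclear protein gene, had 57.8, 29.6 and 27.5 CPM in 30A, 30B and 30C, against 8.35, 4.69, 10.3 and 10.3 CPM in 15A, 15B, 15C and 15D. Their 30C log2 fold changes were 1.96 and 1.86, but neither was called in the 30C comparison (edgeR adjusted p = 0.0535 and 0.0597).

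Adamts4, a secreted protease that cuts the proteoglycan aggrecan, averaged 40.1 ± 17.3 CPM at T30 (SD, n = 3), against 9.60 ± 6.01 CPM at T15 (SD, n = 4), a log2 fold change of 2.11 ± 0.38 that was 2.15 in the 30C comparison. Egr3 ranged from 25.2 to 31.2 CPM at T30, against 5.93 to 9.43 CPM at T15, with 2.02 ± 0.32, and was not called in the 30C comparison (1.84, edgeR adjusted p = 0.103). After background subtraction Egr3 was not called either (1.98, edgeR adjusted p = 0.156). Hspa1b, a heat-inducible HSP70 chaperone, had 87.0, 40.0 and 108 CPM in 30A, 30B and 30C, against 28.8, 12.6, 17.99 and 19.5 CPM in 15A, 15B, 15C and 15D. Here 30C was the highest library and 30B the lowest at T30, and the rise of 2.01 ± 0.44 was 2.48 in the 30C comparison, where it was not called (edgeR adjusted p = 0.0609). Eid3, a gene without introns known as an EP300-interacting inhibitor of differentiation, had 1.96 ± 0.29, and 1.86 in the 30C comparison.

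**Figure D3:**
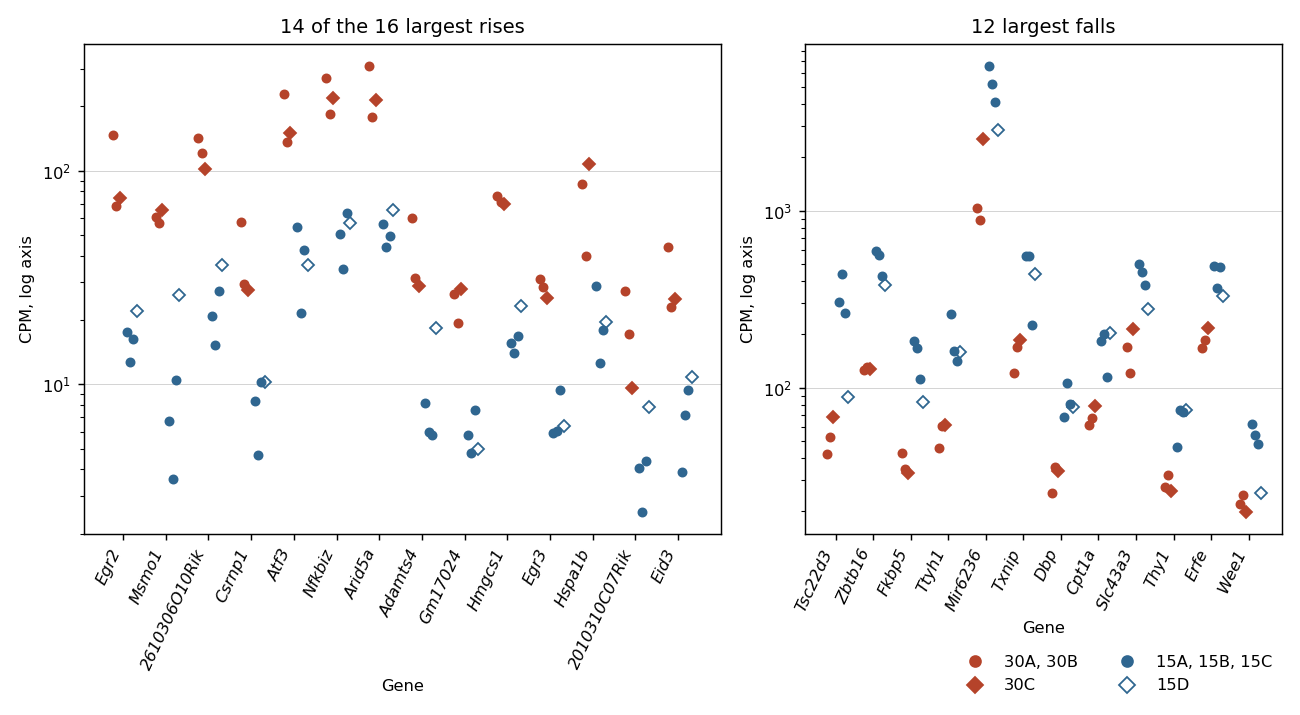
CPM on a log axis of 14 of the 16 largest rises and the 12 largest falls among called genes whose groups do not overlap. Red points are T30 libraries (30C as diamonds), set left of the blue T15 libraries (15D as open diamonds). The 15D value is the highest T15 value for Egr2, Msmo1, 2610306O10Rik, Csrnp1, Arid5a, Adamts4, Hmgcs1, 2010310C07Rik and Eid3. It is the lowest T15 value for Tsc22d3, Zbtb16, Fkbp5, Mir6236, Slc43a3, Erfe and Wee1.

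Of the 16 named rises, 4 were noncoding gene models of GENCODE, of which 3 are described here. The model 2610306O10Rik overlaps Bag3, a cochaperone gene, on the same strand and had 2.30 ± 0.37, while Bag3 itself had 0.57 ± 0.18 (edgeR adjusted p = 0.0637). Gm17024 lies in an intron of Ifrd1, an interferon-related regulator gene, and had 2.09 ± 0.29, with 1.12 ± 0.15 for Ifrd1. The antisense model 2010310C07Rik overlaps Epha1, which is not among the listed genes, and had 1.96 ± 0.37, but was not called in the 30C comparison (1.42, edgeR adjusted p = 0.185). 2610306O10Rik and Gm17024 lie on the strand of their host genes, so their reads and those of unspliced host RNA cannot be told apart. For 2010310C07Rik this depends on whether counting used the strand, which the labels and the table do not state.

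The largest fall was in Tsc22d3, which encodes GILZ, a glucocorticoid-induced leucine zipper protein (chrX:140539528-140600659, - strand). Tsc22d3 had 42.1, 52.2 and 68.3 CPM in 30A, 30B and 30C, against 306, 440.1, 262 and 88.9 CPM in 15A, 15B, 15C and 15D. The groups did not overlap, but 15D lay near 30C and far below 15A to 15C. The log2 fold change was -2.33 ± 0.45 (edgeR adjusted p = 0.00383), -2.60 without 15D and -2.28 in the 30C comparison, where it was not called (edgeR adjusted p = 0.11).

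Zbtb16 (chr9:48654297-48836222, - strand), the transcriptional repressor PLZF, had 125, 131 and 128 CPM in 30A, 30B and 30C, against 589, 559, 429 and 379 CPM in 15A, 15B, 15C and 15D. The T30 libraries were close together at a mean of 128 ± 3.10 CPM (SD, n = 3), against 489 ± 101 CPM at T15 (SD, n = 4). Fkbp5 (chr17:28399094-28517527, - strand), a cochaperone of the glucocorticoid receptor, had 42.7, 34.8 and 32.8 CPM in 30A, 30B and 30C, against 183, 167, 112 and 83.1 CPM in 15A, 15B, 15C and 15D. Again 15D was the lowest T15 library, and the groups did not overlap. Zbtb16 changed by -1.93 ± 0.24 and Fkbp5 by -1.90 ± 0.30 on the log2 scale, and with -2.02 and -2.21 both were called in the 30C comparison (edgeR adjusted p = 0.021 and 0.023). The remaining core fall was Pde10a, a cyclic nucleotide phosphodiesterase gene, with -1.01 ± 0.16 and -1.17 in the 30C comparison.

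The other named falls had varied roles. Txnip, an inhibitor of thioredoxin and of glucose uptake, had 121, 169 and 185 CPM in 30A, 30B and 30C, against 557, 555, 226 and 441 CPM in 15A, 15B, 15C and 15D. Cpt1a, which carries long-chain fatty acids into mitochondria, had 61.3, 67.0 and 78.7 CPM in 30A, 30B and 30C, against 184, 199.98, 115 and 203 CPM in 15A, 15B, 15C and 15D. Erfe, the hormone erythroferrone, had 168, 186 and 218 CPM in 30A, 30B and 30C, against 484, 365, 480.0 and 330.5 CPM in 15A, 15B, 15C and 15D. In all of them the T30 libraries were lower than every T15 library, and the closest pair was 30C and 15C for Txnip. Wee1, a kinase that holds back entry into mitosis, ranged from 19.8 to 24.6 CPM at T30, against 25.4 to 62.0 CPM at T15, and Dbp, a clock output factor, from 25.2 to 35.4 CPM at T30, against 68.2 to 106 CPM at T15. Thy1, a surface glycoprotein, ranged from 26.1 to 32.0 CPM at T30, against 46.1 to 75.1 CPM at T15, Ttyh1, a membrane protein gene, from 45.4 to 61.2 CPM at T30, against 141 to 262 CPM at T15, and Slc43a3, a solute carrier gene, from 121 to 213 CPM at T30, against 278 to 501 CPM at T15. Mir6236, a microRNA gene model of 123 bases between coding genes on chromosome 9, had 1039, 886 and 2537 CPM in 30A, 30B and 30C, against 6556, 5199, 4131 and 2841 CPM in 15A, 15B, 15C and 15D, with 30C close to 15D. Its course was uneven, with means of 3221 CPM at T0, 5146 CPM at T60, 724 CPM at T90 and 3515 CPM at T120. All 9 of these falls were called without 15D. In the 30C comparison they lay between -1.60 (Ttyh1) and -1.01 (Erfe), and none was called there (edgeR adjusted p between 0.0707 for Wee1 and 0.794 for Mir6236).

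Every list count below stands beside the shares of all genes called, 3.16% higher and 1.72% lower. The lists were chosen with earlier results of these data known, so their counts are descriptions and no test. By role, the AP-1 and EGR factors come first, with 11 and 8 measured genes. Of the AP-1 list 5 were called higher and 0 lower, beside 3.16% and 1.72% of all genes, with a median log2 fold change of 0.99 against -0.02 over all genes. They were Atf3, Fosl2 (0.96 ± 0.20), Junb (0.99 ± 0.25), and the small MAF proteins Maff (1.176 ± 0.27) and Mafk (0.89 ± 0.18). Among the AP-1 genes not called, Fos had 2808, 2332 and 2679.9 CPM in 30A, 30B and 30C, against 1342, 1086, 1602 and 1049.7 CPM in 15A, 15B, 15C and 15D, and Jun had 2959, 3046 and 3923 CPM in 30A, 30B and 30C, against 2505, 1837, 2399.6 and 1745 CPM in 15A, 15B, 15C and 15D. For both, the T30 libraries lay above all T15 libraries, but neither passed the test, with 1.04 ± 0.35 for Fos (edgeR adjusted p = 0.0849) and 0.64 ± 0.34 for Jun (edgeR adjusted p = 0.256). Fosb had 0.99 ± 0.33 (edgeR adjusted p = 0.0795). In the 30C comparison the list's median was 0.94, and all 11 members were positive.

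Of the EGR and NR4A list 6 of 8 were called higher and 0 lower, with a median of 1.24, or 1.05 in the 30C comparison. Egr1, the best known of the EGR factors, had 5057, 4200.4 and 5468 CPM in 30A, 30B and 30C, against 2746, 1845, 2769 and 1825 CPM in 15A, 15B, 15C and 15D. Its T30 libraries were all above its T15 libraries, and the log2 fold change was 1.10 ± 0.24. The orphan nuclear receptors Nr4a1, Nr4a2 and Nr4a3 changed by 1.49 ± 0.32, 1.22 ± 0.35 and 1.26 ± 0.26. Nab2, which represses EGR factors, had 0.52 ± 0.21 and was not called (edgeR adjusted p = 0.139).

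Egr2 and the genes Srf and Zfp36, described next, are core genes whose promoter sequence holds a CArG box, the element that serum response factor (SRF) binds. Their RefSeq promoters (GRCm38.p6, from 250 bases before to 50 bases after the start) are shown for that reason, 5′ to 3′, with CArG boxes in capitals.
Egr2, chr10:67537619-67537918, + strand: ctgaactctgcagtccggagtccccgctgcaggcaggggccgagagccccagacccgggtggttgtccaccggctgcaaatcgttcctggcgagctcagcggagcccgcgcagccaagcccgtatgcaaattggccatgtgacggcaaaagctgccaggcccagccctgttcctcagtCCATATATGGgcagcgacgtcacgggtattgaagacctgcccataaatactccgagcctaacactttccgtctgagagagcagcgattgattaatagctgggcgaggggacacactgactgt
Srf, chr17:46556113-46556412, - strand: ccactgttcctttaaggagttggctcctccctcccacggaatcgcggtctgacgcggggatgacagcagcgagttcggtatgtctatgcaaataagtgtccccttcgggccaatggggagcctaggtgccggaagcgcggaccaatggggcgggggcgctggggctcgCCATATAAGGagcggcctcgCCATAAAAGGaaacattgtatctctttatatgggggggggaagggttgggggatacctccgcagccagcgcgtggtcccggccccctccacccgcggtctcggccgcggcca
Zfp36, chr7:28379179-28379478, - strand: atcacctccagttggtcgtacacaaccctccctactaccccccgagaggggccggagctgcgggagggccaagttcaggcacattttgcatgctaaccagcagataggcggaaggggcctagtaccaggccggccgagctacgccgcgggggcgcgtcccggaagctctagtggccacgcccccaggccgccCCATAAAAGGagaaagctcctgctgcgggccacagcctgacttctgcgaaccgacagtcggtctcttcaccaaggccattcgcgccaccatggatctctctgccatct
Srf, which encodes serum response factor itself, holds a pair of boxes. Srf had 74.6, 75.4 and 68.1 CPM in 30A, 30B and 30C, against 33.1, 35.1, 38.0 and 39.6 CPM in 15A, 15B, 15C and 15D, a change of 0.99 ± 0.12 that was 0.96 in the 30C comparison. Zfp36, whose protein promotes the decay of AU-rich mRNAs, had 788, 561 and 706 CPM in 30A, 30B and 30C, against 234, 189.6, 263 and 170.0 CPM in 15A, 15B, 15C and 15D, a change of 1.68 ± 0.21 that was 1.64 in the 30C comparison. For both genes the groups did not overlap, and 30C was the lowest T30 library of Srf and the middle one of Zfp36. A CArG box on either strand was held by 5 of 186 called rises with a promoter in the table (2.69%), by 2 of 114 called falls (1.75%) and by 3 of the 35 core rises with one (8.57%), against 1.87% of the 6140 listed genes with a promoter and 1.63% of all 32851 promoters of that length. The share of all promoters counts promoters and the other shares count genes, some of which, such as Egr2, have more than 1 promoter. This difference also holds for the shares of all promoters given below. A match of letters is a description of the sequence only.

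Of 34 other immediate early genes, 9 were called higher and 0 lower, with a median of 0.40 that was 0.48 in the 30C comparison. Besides Srf and Csrnp1 these were Ier3 (1.87 ± 0.31), an inhibitor of cell death, Plk3 (1.86 ± 0.29), a stress kinase, Irf1 (1.82 ± 0.31), an interferon regulatory factor, Ier5l (1.395 ± 0.32), and the growth-arrest genes Gadd45a (0.72 ± 0.15), Gadd45b (1.90 ± 0.30) and Gadd45g (1.33 ± 0.37). Ier3, Plk3, Gadd45b and Srf were core genes. Ier3 had 23.0, 9.80 and 14.9 CPM in 30A, 30B and 30C, against 4.58, 2.08, 5.89 and 4.97 CPM in 15A, 15B, 15C and 15D. Gadd45b had 37.2, 19.2 and 27.2 CPM in 30A, 30B and 30C, against 9.70, 3.52, 8.46 and 8.70 CPM in 15A, 15B, 15C and 15D. In both genes 30C lay between 30B and 30A, and every T15 library was lower than every T30 library. Several early genes that react within minutes were not called, among them Ier2 (0.62 ± 0.21), Btg2 (0.61 ± 0.22), Klf4 (0.75 ± 0.33), Klf6 (0.27 ± 0.20) and Myc (-0.06 ± 0.20).

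Genes that turn a signal down again were counted in 3 lists. In the order below, 12.5%, 7.14% and 11.1% of their members were called, beside 4.89% of all genes. The middle share rests on 1 gene. Of 16 mRNA decay factors 2 were called, both higher: Zfp36 and Zc3h12a, the endonuclease Regnase-1, which had 22.8, 14.01 and 14.4 CPM in 30A, 30B and 30C, against 7.68, 5.42, 5.46 and 10.3 CPM in 15A, 15B, 15C and 15D. The list's median was -0.13, or -0.01 in the 30C comparison, and the paralogues Zfp36l1 and Zfp36l2 had 0.06 ± 0.16 and 0.00 ± 0.28. Of 14 genes of MAP kinase and receptor feedback, Dusp5, a nuclear ERK phosphatase, was called (1.90 ± 0.41). Dusp1, another phosphatase of the family, had 0.15 ± 0.17 and was not called. The feedback list's median was 0.10, or 0.02 in the 30C comparison. Of 18 cytokine receptor and STAT3 genes, with medians of 0.31 and 0.19 in the same order, 2 were called, both higher and both core genes. Socs3, which blocks cytokine receptor signalling, had 421, 359.6 and 464 CPM in 30A, 30B and 30C, against 158, 78.6, 147 and 122 CPM in 15A, 15B, 15C and 15D. Tnfrsf12a, the receptor for the cytokine TWEAK, had 29.0, 29.0 and 36.6 CPM in 30A, 30B and 30C, against 9.03, 6.77, 9.64 and 7.99 CPM in 15A, 15B, 15C and 15D, a change of 1.93 ± 0.19. In Socs3 and Tnfrsf12a every T30 library was above every T15 library. Stat3 (0.34 ± 0.18), Il6st (-0.19 ± 0.13) and Lifr (-0.05 ± 0.12) were not called.

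Of 16 NF-kB genes, 7 were called higher and 0 lower, with a median of 0.77, 0.83 without 15D and 0.71 in the 30C comparison. NF-kB factors are held in the cytoplasm by inhibitors of the IkB family, many of which are themselves targets of the factors. Called were the subunits Nfkb2 (0.74 ± 0.18) and Relb (0.95 ± 0.20), the inhibitor family members Nfkbie (1.70 ± 0.30), Nfkbiz and Bcl3 (1.76 ± 0.27), the chemokine Cxcl1 (1.51 ± 0.40), and Zc3h12a. Nfkbie had 47.2, 31.0 and 30.3 CPM in 30A, 30B and 30C, against 10.2, 7.22, 10.1 and 17.6 CPM in 15A, 15B, 15C and 15D. Bcl3 had 38.1, 20.8 and 24.8 CPM in 30A, 30B and 30C, against 8.35, 6.14, 6.75 and 12.4 CPM in 15A, 15B, 15C and 15D. The groups did not overlap, and 15D was the highest T15 library of both. Nfkbia, the classical inhibitor, had 0.32 ± 0.21, Tnfaip3 0.59 ± 0.23, and the subunits Nfkb1 and Rela -0.01 ± 0.19 and 0.11 ± 0.13, none of them called. Nfkbie and Bcl3 are shown as core genes whose RefSeq promoter holds a match to the NF-kB site on either strand, given in capitals.
Nfkbie, chr17:45555450-45555749, + strand: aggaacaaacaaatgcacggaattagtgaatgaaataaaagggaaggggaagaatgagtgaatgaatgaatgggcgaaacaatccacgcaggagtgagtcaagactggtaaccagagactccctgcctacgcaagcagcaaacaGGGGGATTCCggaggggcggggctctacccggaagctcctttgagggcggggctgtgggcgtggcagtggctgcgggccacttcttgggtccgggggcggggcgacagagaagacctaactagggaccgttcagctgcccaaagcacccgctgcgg
Bcl3, chr7:19822706-19823005, - strand: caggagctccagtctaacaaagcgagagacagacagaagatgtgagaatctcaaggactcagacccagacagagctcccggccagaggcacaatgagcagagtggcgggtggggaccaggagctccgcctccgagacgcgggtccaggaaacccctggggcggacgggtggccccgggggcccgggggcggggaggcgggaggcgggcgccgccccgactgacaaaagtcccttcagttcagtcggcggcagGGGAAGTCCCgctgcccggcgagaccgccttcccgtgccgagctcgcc
Such a match was found in 20 of 186 called rises with a promoter (10.8%), 4 of 114 called falls (3.51%), 6.04% of the listed genes and 4.51% of all promoters.

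Of 19 YAP and SRF cytoskeleton targets 3 were called, all higher, with a median of 0.29, or 0.47 in the 30C comparison. Ccn1, a secreted matrix-associated protein, had 225, 248 and 293 CPM in 30A, 30B and 30C, against 85.4, 80.4, 91.3 and 71.5 CPM in 15A, 15B, 15C and 15D. Thbs1, thrombospondin 1, changed by 1.61 ± 0.32, and Srf is described above. Ccn2 (0.44 ± 0.26), Ankrd1 (0.68 ± 0.24) and the actin gene Actb (0.37 ± 0.16) were not called.

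Cholesterol genes formed a group that was put together after the values of this step were seen, so its count too is a description only. Cells sense low membrane sterol through SCAP, which carries the transcription factor SREBP2 to the Golgi for cleavage, and the freed factor switches on genes of sterol synthesis and uptake. Of 22 listed genes of synthesis, uptake and control, 13 were called higher and 0 lower, with a median of 1.13, or 1.19 in the 30C comparison and 0.97 after background subtraction. After that subtraction 8 of the list were called higher and 0 lower. Of the 13, 9 were core genes, among them Msmo1, Hmgcs1, Sqle, Cyp51, Fdft1, Insig1, Stard4 and Sc5d. Of these, Stard4 and Sc5d were not called after subtraction (1.70 and 1.65, edgeR adjusted p = 0.114 and 0.296).

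Within the pathway, Fdft1, squalene synthase, had 37.9, 39.8 and 41.5 CPM in 30A, 30B and 30C, against 7.81, 9.30, 14.7 and 19.2 CPM in 15A, 15B, 15C and 15D. Sqle, squalene epoxidase, had 48.7, 43.8 and 33.7 CPM in 30A, 30B and 30C, against 5.79, 7.31, 10.6 and 23.1 CPM in 15A, 15B, 15C and 15D. In both, all T30 libraries were above all T15 libraries, and 15D was closest to them. Cyp51, a sterol demethylase, changed by 1.81 ± 0.29, Sc5d, a desaturase near the end of the pathway, by 1.33 ± 0.28, Lss, which closes the sterol rings, by 1.24 ± 0.33, and Hsd17b7 by 1.10 ± 0.30. Insig1, which retains SCAP in the endoplasmic reticulum and is itself a target of SREBP2, had 80.6, 59.8 and 83.8 CPM in 30A, 30B and 30C, against 23.6, 24.9, 31.7 and 28.6 CPM in 15A, 15B, 15C and 15D, a change of 1.46 ± 0.20. Stard4, a sterol transfer protein, changed by 1.404 ± 0.21, and Srebf2, which encodes SREBP2, by 0.51 ± 0.12. The carrier and protease genes Scap (-0.02 ± 0.13), Mbtps1 (-0.20 ± 0.12) and Mbtps2 (0.35 ± 0.17), the paralogue Insig2 (-0.32 ± 0.20) and the late enzyme gene Ebp (0.13 ± 0.14) were not called. Nsdhl had 1.09 ± 0.36 (edgeR adjusted p = 0.0838).

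Hmgcs1 is shown as the called cholesterol gene whose RefSeq promoter holds the sterol response element TCACNCCAC, which SREBP factors bind, in capitals.
Hmgcs1, chr13:119690101-119690400, + strand: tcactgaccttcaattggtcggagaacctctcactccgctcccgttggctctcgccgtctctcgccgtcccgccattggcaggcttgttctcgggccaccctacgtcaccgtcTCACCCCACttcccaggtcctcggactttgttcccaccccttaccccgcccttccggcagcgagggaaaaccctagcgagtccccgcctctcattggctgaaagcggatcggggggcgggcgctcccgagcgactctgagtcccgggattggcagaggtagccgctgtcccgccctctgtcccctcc
Of the 13 called cholesterol genes 8 had a promoter in the table and 1 of them (12.5%) held the element on either strand, against 1.35% of the listed genes and 1.24% of all promoters.

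Other lipid genes were also called. Of 14 fatty acid synthesis genes, also listed after the values were seen, 6 were called higher and 0 lower, with a median of 0.58 and 0.54 in the 30C comparison. They were Fasn, fatty acid synthase (0.64 ± 0.15), the desaturases Scd2 (0.73 ± 0.21), Fads1 (0.74 ± 0.20) and Fads3 (0.89 ± 0.17), Srebf1, which encodes SREBP1 (0.57 ± 0.15), and Mid1ip1 (0.58 ± 0.15), which activates acetyl-CoA carboxylase. None of the 6 was a core gene. Of 7 genes of cholesterol export and storage, the HDL receptor gene Scarb1 was higher (0.94 ± 0.26) and the sterol-binding Osbp lower (-0.32 ± 0.09), while the exporter Abca1 had -0.58 ± 0.30 and was not called. The export list's median was 0.01, or 0.22 in the 30C comparison.

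Several of the largest falls were glucocorticoid targets. Glucocorticoid hormones act through the receptor NR3C1, which binds DNA and raises transcription of genes such as Fkbp5 and Tsc22d3. Of 22 listed targets 7 were lower and 1 higher, with a median of -0.25 that was -0.26 in the 30C comparison. Besides Tsc22d3, Zbtb16, Fkbp5 and Txnip, the lower genes were Glul, glutamine synthetase (-1.05 ± 0.25), the FoxO factor Foxo3 (-0.998 ± 0.21) and the kinase Sgk1 (-0.64 ± 0.18). Foxo3 had 151, 199.9 and 232 CPM in 30A, 30B and 30C, against 478, 459.6, 347 and 269 CPM in 15A, 15B, 15C and 15D. Glul had 182, 148 and 211 CPM in 30A, 30B and 30C, against 377, 466, 411 and 243 CPM in 15A, 15B, 15C and 15D. In both the groups did not overlap, and 15D was the lowest T15 library. The gene called higher was Mt1, a metallothionein (2.27-fold). Nr3c1 itself had -0.07 ± 0.10 and was not called, and nor were Per1 (-0.05 ± 0.21), Klf9 (-0.10 ± 0.22) and Ddit4 (-0.72 ± 0.43). After background subtraction 4 of the list were called lower and 3 higher, with Tsc22d3 at -2.40, Zbtb16 at -1.51 and Fkbp5 at -3.90. For Fkbp5, with 9468 bases of exon, the background in 30A and 30B was larger than its counts. Subtraction left Fkbp5 no counts in these libraries, so the size of -3.90 rests on 30C at T30 and does not measure its fall.

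Sgk1 had 118, 145 and 141 CPM in 30A, 30B and 30C, against 249, 216, 233 and 142 CPM in 15A, 15B, 15C and 15D, and its groups overlapped. It is the single listed gene whose RefSeq promoter holds the full palindrome of the glucocorticoid response element (AGAACA and TGTTCT with 3 bases between them, the same on both strands), which 3 of all 32851 promoters hold, and that promoter is shown with the element in capitals.
Sgk1, chr10:21993640-21993939, + strand: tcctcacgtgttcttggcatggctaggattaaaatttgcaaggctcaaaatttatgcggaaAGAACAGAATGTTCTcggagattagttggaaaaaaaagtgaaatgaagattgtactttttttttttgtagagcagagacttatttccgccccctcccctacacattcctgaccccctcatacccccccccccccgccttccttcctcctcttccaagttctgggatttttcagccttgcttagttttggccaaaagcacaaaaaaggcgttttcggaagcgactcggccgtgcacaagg

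Several clock output genes fell. In the circadian clock, CLOCK and BMAL1 drive the repressors PER, CRY and REV-ERB and output factors such as DBP and TEF. Of 18 listed genes 5 were lower and 1 higher, with a median of -0.18, or -0.23 in the 30C comparison. Lower were Dbp (-1.40 ± 0.33), Tef (-0.89 ± 0.19), the REV-ERB genes Nr1d1 (-0.95 ± 0.24) and Nr1d2 (-0.89 ± 0.20), and Bhlhe41 (-0.77 ± 0.19). Tef had 119, 106 and 102 CPM in 30A, 30B and 30C, against 175, 248, 223 and 159.7 CPM in 15A, 15B, 15C and 15D. Higher was Nfil3, which represses the same D-box sites that DBP and TEF activate and is also an early response gene. Nfil3 had 72.8, 45.4 and 43.6 CPM in 30A, 30B and 30C, against 19.9, 11.1, 14.5 and 18.5 CPM in 15A, 15B, 15C and 15D. For both genes the T30 and T15 libraries were fully apart, in opposite directions. Per2 had -0.96 ± 0.29 (edgeR adjusted p = 0.0591), Arntl, which encodes BMAL1, 0.80 ± 0.29, and Clock 0.11 ± 0.12, and none of them was called.

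Stress programmes had 3 to 5 calls each, beside 4.89% of all genes. Of 24 heat shock and chaperone genes 5 were higher (20.8%) and 0 lower, with a median of -0.04 and 0.19 in the 30C comparison. They were the HSP70 genes Hspa1a (1.67 ± 0.43), Hspa1b and Hspa2 (0.99 ± 0.28), and the DNAJ cochaperones Dnajb1 (1.35 ± 0.31) and Dnajb5 (0.86 ± 0.23). Dnajb1 had 123, 94.8 and 124 CPM in 30A, 30B and 30C, against 41.5, 44.3, 49.5 and 43.0 CPM in 15A, 15B, 15C and 15D. Hspa1a and Hspa1b are near-identical copies whose reads the counting could split, so their values are uncertain. Hspa8 (-0.26 ± 0.23), Hsp90ab1 (-0.30 ± 0.17) and the regulator Hsf1 (-0.27 ± 0.10) were not called.

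Of 17 genes of the integrated stress response 4 were higher (23.5%) and 0 lower, with a median of 0.15, or 0.11 in the 30C comparison. Atf4, its central transcription factor, had 288, 278 and 294 CPM in 30A, 30B and 30C, against 152, 171, 200.1 and 162 CPM in 15A, 15B, 15C and 15D, and its groups did not overlap. The others were Ddit3, which encodes CHOP (0.84 ± 0.22), Ppp1r15a, which restores translation (0.90 ± 0.19), and Cebpg, a dimer partner of ATF4 (0.65 ± 0.12). The kinases that start the response, Eif2ak1 to Eif2ak4, were between 0.05 and 0.15 in log2 fold change, and none was called.

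Of 17 p53 and growth-arrest genes 3 were higher and 1 lower (23.5% in all), with a median of 0.24, or 0.16 in the 30C comparison. Cdkn1a, the cyclin-dependent kinase inhibitor p21, had 45.2, 21.2 and 17.95 CPM in 30A, 30B and 30C, against 7.27, 7.403, 5.998 and 8.34 CPM in 15A, 15B, 15C and 15D. Its T30 libraries were all higher, and the change of 1.93 ± 0.31 was 1.399 in the 30C comparison (edgeR adjusted p = 0.11). Plk3 and Gadd45a were also higher, Sesn1 was lower (-0.70 ± 0.19), and Mdm2 (0.12 ± 0.11) and Trp53 (-0.18 ± 0.10) were not called. Of 18 antioxidant and metallothionein genes, Mt1 and Osgin1 (2.46-fold) were higher and catalase, Cat, was lower (-0.66 ± 0.18), 16.7% in all, with a median of 0.19, or 0.30 in the 30C comparison. Hmox1, the haem oxygenase that NRF2 induces, had 0.74 ± 0.62 and was not called. Of 19 MYC and cell cycle genes, Ccnl1 was higher (0.73 ± 0.16) and the MYC antagonist Mxd4 lower (-0.55 ± 0.14), with a median of -0.05, or 0.16 in the 30C comparison.

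Genes that mark the quiescent state were mostly not called. Of 35 quiescence and Notch genes 4 were lower (11.4%) and 0 higher, beside 1.72% and 3.16% of all genes. The list's median was -0.14, or 0.02 in the 30C comparison. Chodl had 659, 663 and 888 CPM in 30A, 30B and 30C, against 1921, 1277, 1365 and 980.3 CPM in 15A, 15B, 15C and 15D. Gas1, a growth-arrest membrane protein, had 269.7, 327 and 373 CPM in 30A, 30B and 30C, against 919, 766, 611 and 387 CPM in 15A, 15B, 15C and 15D. Egfr, the receptor for epidermal growth factor, had 268, 255 and 357 CPM in 30A, 30B and 30C, against 726, 574, 493 and 379 CPM in 15A, 15B, 15C and 15D. In these genes, as in Foxo3, every T30 library was below every T15 library, with 15D the lowest at T15 and 30C the highest at T30. Log2 fold changes were -0.91 ± 0.22, -1.05 ± 0.28 and -0.89 ± 0.19 for Chodl, Gas1 and Egfr, and -0.76, -1.02 and -0.73 in the 30C comparison, where none was called. The Notch receptors Notch1, Notch2 and Notch3 (0.18 ± 0.15, -0.32 ± 0.14 and -0.11 ± 0.15) and the Notch targets Hes1 (-0.14 ± 0.33), Hey1 (-0.13 ± 0.15) and Heyl (-0.21 ± 0.15) were not called. Of 16 myogenic genes 0 were called, with 0.23 ± 0.17 for Pax7, -0.18 ± 0.18 for Myf5 and 0.12 ± 0.21 for Myod1.

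Genes of large protein complexes had medians a little below 0 that were nearer to 0 in the 30C comparison. The 78 ribosomal protein genes had a median of -0.20 with 0 called, and -0.03 in the 30C comparison. The 66 respiratory chain genes had -0.22 and -0.05 in the same order, with Cox6a1 called lower (-0.54 ± 0.15), and the 32 proteasome genes -0.21 and -0.02, with 0 called. Of 38 translation factors 3 were higher, Eif1a (0.68 ± 0.14), Eif2s2 (0.43 ± 0.09) and Eif3j1 (0.74 ± 0.19), and 1 lower, Eif3k (-0.43 ± 0.11). Eif1a was the core gene among them, but it was not called after background subtraction (0.58, edgeR adjusted p = 0.215).

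**Figure D4:**
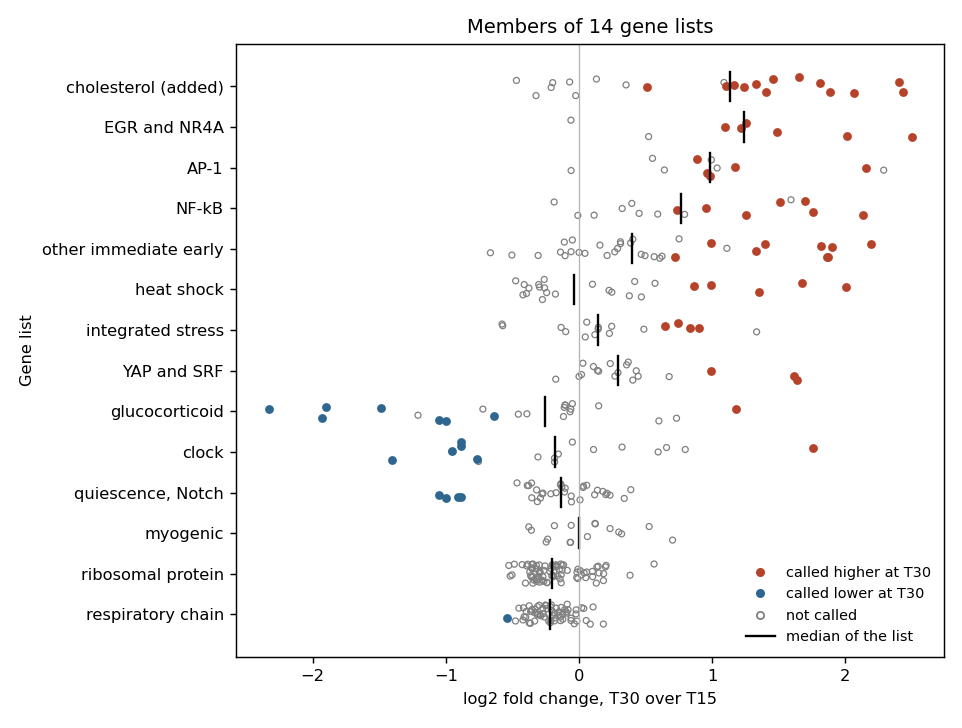
Log2 fold change, T30 over T15, of each measured member of 14 gene lists, with called members filled (red higher, blue lower), others open, and a bar at the median. The cholesterol list, put together after the values were seen, has a median of 1.13 and the EGR and NR4A list 1.24, while ribosomal protein genes lie around -0.20.

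The changed genes were at different stages of their course. The highest mean fell on T30 for 2 of the 55 core rises, on T60 for 38, on T90 for 12 and on T120 for 3. Over all 255 rises it fell on T30 for 48, on T60 for 93, on T90 for 64 and on T120 for 50. Of the 139 falls, 64 had their lowest mean at T30 and 59 at T120. These counts use the T30 libraries that the calls also used, so they describe the genes and are no test.

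Some genes had like means at T0 and T15, and others were already higher at T15 than at T0. Msmo1 averaged 12.8 ± 4.65 CPM at T0, 11.8 ± 10.1 CPM at T15, 60.9 ± 4.32 CPM at T30 and 102 ± 38.2 CPM at T60 (SD, n = 4, 4, 3 and 4). Hmgcs1 averaged 19.6 ± 7.92 CPM at T0, 17.4 ± 4.05 CPM at T15, 72.4 ± 3.37 CPM at T30 and 162 ± 58.6 CPM at T60. Both cholesterol genes thus had like means at T0 and T15. Zfp36, by contrast, averaged 19.6 ± 3.25 CPM at T0, 214 ± 42.2 CPM at T15, 685 ± 115 CPM at T30 and 1197 ± 239.8 CPM at T60. Socs3 averaged 10.8 CPM at T0, 126 CPM at T15, 415 CPM at T30 and 627 CPM at T60, so that it too was on its way up at T15. Bcl3 averaged 8.46 CPM at T0, 8.42 CPM at T15 and 27.9 CPM at T30, with no gap between T0 and T15. Among the falls, Fkbp5 averaged 124 ± 51.3 CPM at T0, 136 ± 47.0 CPM at T15, 36.8 ± 5.25 CPM at T30 and 41.7 ± 6.59 CPM at T60. Zbtb16 averaged 459 CPM at T0, 489 CPM at T15, 128 CPM at T30, 195 CPM at T60, 176 CPM at T90 and 62.1 CPM at T120. Its mean was thus higher at T60 and T90 than at T30, and lowest at T120. Fkbp5 averaged 31.5 CPM at T90 and 31.7 CPM at T120.

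**Figure D5:**
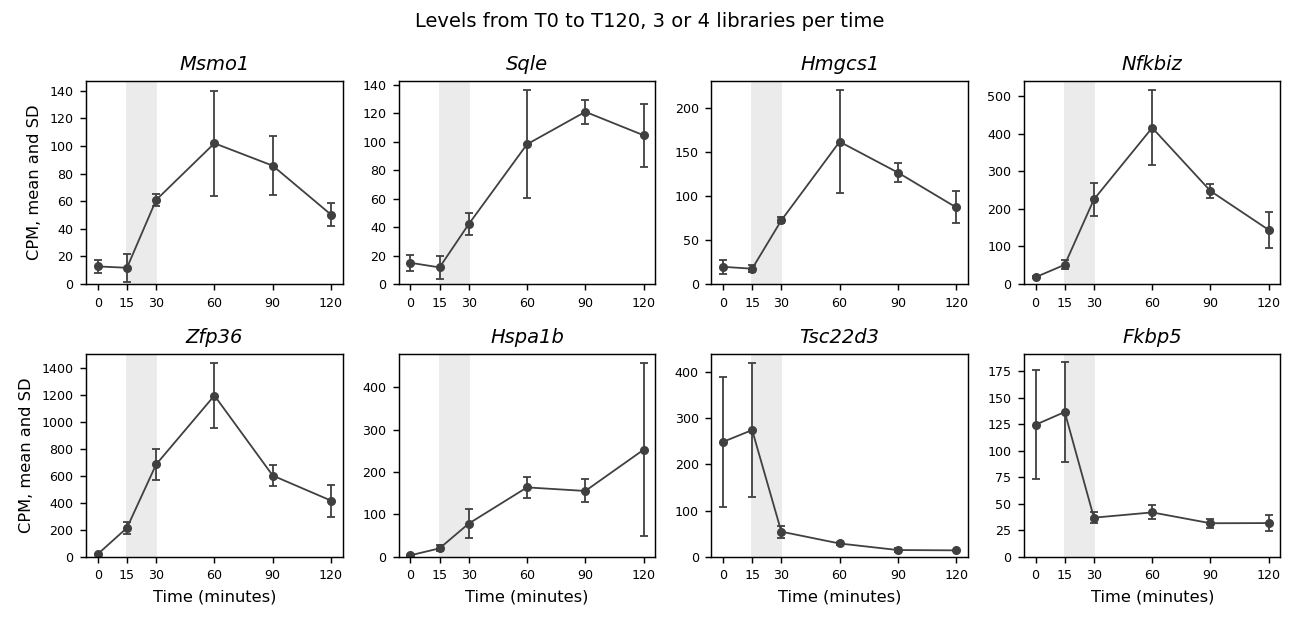
Mean and SD of CPM at T0, T15, T30, T60, T90 and T120 for 8 genes, with the step from T15 to T30 shaded (4 libraries per time, 3 at T30 and T90). Msmo1, Sqle and Hmgcs1 have like means at T0 and T15, with the highest mean of Msmo1 and Hmgcs1 at T60 and of Sqle at T90, while Tsc22d3 and Fkbp5 are low from T30 on.

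The genes that rose had shorter spans and fewer exons, with no test made. The 255 rises had a median genomic span of 14412 bases and 65 of them (25.5%) had at most 3 exons in their longest transcript, against 42442 bases and 6.47% for the 139 falls and 29223 bases and 10.1% for the 8049 listed genes with an annotation. The 55 core rises had a median span of 10217 bases and 29.1% with at most 3 exons. Of the 255 rises 224 were protein coding, and of the 139 falls 135.

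Other motifs were sought in the same promoters on both strands. The AP-1 site TGACTCA was found in 9.68% of called rises and 9.65% of called falls with a promoter, against 4.28% of the listed genes. The EGR site GCGTGGGCG was found in 3.23% of rises and 0.877% of falls, against 1.60% of the listed genes. The cyclic AMP element TGACGTCA was found in 3.23% of rises and 2.63% of falls, against 4.04% of the listed genes, and the E-box CACGTG, which the clock factors also bind, in 10.2% of rises and 13.2% of falls, against 13.0%. No test was made of these shares.

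In the authors' deposited table, 517 genes were higher and 159 lower at T30 with an adjusted p under 0.05. All 255 rises called here and 116 of the 139 falls are among them in the same direction.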

How the data were processed

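Bulk RNA of muscle stem cells was measured with a stranded total RNA kit for low input, read as single reads, after extraction with a kit for formalin-fixed material, per the labels' protocols. The submitters' processing notes name cutadapt 1.11, featureCounts 1.4.5-p3, DESeq2 1.18.1 and the build mm10, with no role or order. The sources used here do not give the aligner, the annotation or the strand setting. The table holds whole-number counts per gene, as the authors deposited them, for 22 libraries, and 0 library columns were left unmatched to a time point. The authors also deposited scaled counts, a score equal to the counts over 1 size factor per library within 0.586, which gave the alternative size factors. Per the file headers the table holds a mean signal over libraries (base mean), log2 fold changes and adjusted p-values by the authors. The lowest base mean is 98.4, so weakly expressed genes are not analysed here. Of the 15 samples in the labels, 9 without a file were not analysed here. Of 8059 IDs, 8049 matched GENCODE vM21 (GRCm38). Letters A to D come from the column names.

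Counts were tested with edgeR 4.0.16 (quasi-likelihood F test, TMM factors, R 4.3.3), all 22 libraries in 1 fit with time point as a factor, contrast T30 minus T15, Benjamini-Hochberg over all genes, called at an adjusted p under 0.05. The common biological coefficient of variation was 0.192. The low-count filter removed 0 genes. CPM uses TMM factors, and standard errors are the absolute log2 fold change divided by the root of F. On simulated counts for T30 over T15 on 8059 genes, 34.3% of 1.5-fold, 83.6% of 2-fold and 98.5% of 4-fold changes were recovered, with 6 false calls. These shares and the 6 false calls hold for the simulated counts only. They do not measure false calls that the differing background of the real libraries could give. DESeq2 1.42.0 and limma 3.58.1 were alternatives.

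The members and lists were chosen with earlier results of these data known, and the lipid lists after the values of this step were seen. Of 26 silent long genes named, 7 were listed. Ryr3 and Hmcn2 were dropped from the density for reaching 1 CPM per kb at T60, a choice made after the values were seen. The planned permutation test covers all 7. Named were the 16 largest rises and 12 largest falls among called genes whose groups do not overlap, called and defining list members, and the 6 largest rises and 6 largest falls (3 existed) called in all 3 comparisons. No promoter on chromosome 18 is shown, and some genes that the rule or the lists hold are counted but not reported here by name. Promoters were matched by symbol for 6140 of 8059 genes.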

Additional observations from a re-analysis of the deposited data

Results flagged for a closer look

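Of 30 sets of 4 T15 values tested for a value far from the other 3 (28 named genes, the background density and the total of counts), 4 held one, where chance gives about 1 in 20. In Egr3 library 15C was the highest with 9.43 CPM. In Ttyh1 library 15A was the highest with 262 CPM, and in Thy1 library 15A was the lowest with 46.1 CPM. In the density of silent long genes library 15D was the highest with 3.81 CPM per kb. Egr3, Ttyh1 and Thy1 were called with these libraries included. The causes were not tested.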

How the results depend on the processing

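Counts of genes higher and lower at T30 (255 and 139, 394 in all) were 434 and 213 (647 in all) with DESeq2, 165 and 95 (260) with limma-voom, 261 and 111 with RLE factors, 297 and 66 with the authors' size factors, and 82 and 16 (98) when only the 7 libraries were fitted. They were 55 and 4 (59) in the 30C comparison, 435 and 124 after background subtraction, 583 and 164 (747) after subtraction without 15D, chosen after the values were seen, and 94 and 9 (103) with the background density as a covariate. Leaving out 1 library at a time gave 107 to 1140 calls, 92 to 767 higher and 15 to 423 lower, 21 to 28 of the 28 named genes, 44 to 144 of the list members (91 called of 582), and a density difference between 0.83 and 1.56 (log2). List members called were 40 with the 7 libraries, 28 in the 30C comparison and 49 with the covariate, and 13 named genes were called in the 30C comparison. No filter and a stricter filter left all counts as they were. For the letters A, B and C, same-letter deviations at T30 and T15 correlated at -0.34, 0.01 and 0.12, and not every library correlated best with its own letter. The largest values, 0.66 for 30A with 15D and -0.74 for 30C with 15D, involved libraries that differ in background. The check therefore cannot decide whether the letters pair the libraries. The fit with the letter as a replicate block called 242 and 126. Of 2014 values of 106 named genes or members under the alternatives, 1571 kept direction and call, 436 kept direction only and 7 changed sign. After background subtraction these were Eif3j1 (-0.23), Eif3k (0.083) and Scarb1 (-0.36), and without 15D as well Cox6a1 (0.047), Eif3j1 (-0.59), Eif3k (0.17) and Scarb1 (-0.71). The causes were not tested. With 3876418 to 10482407 counts per library in listed genes, changes under 2-fold were often missed in simulation.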

Other observations

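Outside the lists, several core rises encode parts of the actin cytoskeleton, microtubules and nuclear lamina. They were picked by function after their values were seen, so they carry no test as a group. Lmna, which encodes the nuclear lamins A and C, had 455, 353 and 399.9 CPM in 30A, 30B and 30C, against 219, 211, 199.97 and 204 CPM in 15A, 15B, 15C and 15D. Tpm3, a tropomyosin that lines actin filaments, had 106, 86.6 and 99.3 CPM in 30A, 30B and 30C, against 45.1, 51.8, 44.6 and 46.7 CPM in 15A, 15B, 15C and 15D. Tubb6, a beta tubulin, had 46.7, 39.4 and 41.8 CPM in 30A, 30B and 30C, against 10.5, 14.5, 17.7 and 22.0 CPM in 15A, 15B, 15C and 15D. All 3 T30 libraries lay above all T15 libraries in each of them, with log2 fold changes of 0.95 ± 0.12, 1.05 ± 0.14 and 1.41 ± 0.24, and 0.95, 1.09 and 1.57 in the 30C comparison. The actin-binding genes Lasp1 and Pdlim7 changed by 0.80 ± 0.13 and 0.87 ± 0.19, and Fhl3, a LIM domain gene of muscle, by 1.54 ± 0.27.

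Other core rises chosen in the same way bear on polyamines and on the matrix. Sat1, which acetylates polyamines for export, had 89.9, 70.6 and 86.8 CPM in 30A, 30B and 30C, against 39.3, 29.8, 44.5 and 34.97 CPM in 15A, 15B, 15C and 15D, a change of 1.15 ± 0.18, and Azin1, which protects the polyamine enzyme ornithine decarboxylase from degradation, had 124, 85.8 and 116 CPM in 30A, 30B and 30C, against 58.2, 62.9, 61.7 and 56.1 CPM in 15A, 15B, 15C and 15D, a change of 0.86 ± 0.14. In both genes the groups did not overlap. Plat, tissue plasminogen activator, had 44.9, 34.8 and 33.7 CPM in 30A, 30B and 30C, against 13.5, 7.95, 11.6 and 31.4 CPM in 15A, 15B, 15C and 15D, with 15D close to the T30 libraries. Its log2 fold change was 1.26 ± 0.32 with all libraries and 1.65 in the 30C comparison. Plat was not called after background subtraction (0.63, edgeR adjusted p = 0.589) or with the background density as a covariate (0.96, edgeR adjusted p = 0.203).

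Cyclic nucleotide phosphodiesterases break down cyclic AMP or cyclic GMP, and the family was also picked after its values were seen. Of 11 listed genes 3 were called lower, 0 higher and 8 not called, beside 1.72% of all genes lower and 3.16% higher. Pde4c, not called, had a log2 fold change of 2.14 (edgeR adjusted p = 0.059). Besides the core fall Pde10a, Pde3a had 188, 178 and 206 CPM in 30A, 30B and 30C, against 410.2, 372, 295 and 249 CPM in 15A, 15B, 15C and 15D and Pde3b had 49.6, 62.2 and 63.3 CPM in 30A, 30B and 30C, against 108, 74.3, 76.6 and 69.8 CPM in 15A, 15B, 15C and 15D. Every T30 library was below every T15 library in both, with changes of -0.80 ± 0.19 and -0.49 ± 0.14, and -0.78 and -0.43 in the 30C comparison, where neither was called (edgeR adjusted p = 0.384 and 0.632). Pde12, by contrast a core rise (1.07 ± 0.15), encodes a nuclease that trims poly(A) tails and no cyclic nucleotide enzyme. After background subtraction Pde12 was not called (0.69, edgeR adjusted p = 0.613).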
